A study of Caenorhabditis elegans with 4 samples.

Results

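The small nuclear RNA (snRNA) genes of *Caenorhabditis elegans*, with the spliced leader RNA genes among them, were examined for regions bound by the factor CES-1. Members were all genes of Ensembl release 115 with the biotype snRNA or a symbol that starts with sls-, which gave 129 of 46926 genes. They comprised 12 genes for the spliced leader SL1 (sls-1), 18 for SL2 (sls-2), 10 SmY genes (smy) and 89 other snRNA genes. Binding had been measured by chromatin immunoprecipitation with sequencing (ChIP-seq) in whole L4 larvae of both sexes, in 4 biological replicates that form 1 group with no second condition. The worms, strain OP174, carried the unc-119 allele ed3 and the integrated array wgIs174. In that array ces-1 is joined to the TY1, EGFP and FLAG tags, and the array also holds unc-119. The tagged protein is thus made from a transgene, and whole larvae mix all cell types. Replicates 1 and 2 have a stated fragment size of 150 to 350 bp, and replicates 3 and 4 were sonicated with a microtip. The labels tie all 4 to 1 strain, and the control library was not analysed here.

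CES-1 is the worm's Snail-type zinc finger protein, best known for controlling the death of particular neuronal sister cells, and Snail proteins bind DNA at E-boxes such as CAGGTG. Spliceosomal snRNAs build the particles that remove introns. The spliced leader RNAs of nematodes donate their first bases, the leader, to the 5′ ends of messenger RNAs by trans-splicing: SL1 is used at the first gene of an operon and at many single genes, and SL2 mainly at the downstream genes of operons. The SmY RNAs are small nematode RNAs found with the trans-splicing machinery. All these genes are very short, many exist in near-identical copies, and most have their promoter elements just upstream of the RNA's first base.

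The genes on which the results turn are shown first, as RefSeq's WBcel235 genome (ce11) has them, each 5′ to 3′ on its own strand. Of the 18 SL2 genes, 4 begin with the same 22 bases, the leader sequence of sls-2.1. The genes sls-2.1 (chrII:5844865-5844974, plus strand), sls-2.2 (chrII:5543598-5543707, plus strand) and sls-2.3 (chrII:5544164-5544273, minus strand) are 3 of these 4, and the leader is in capitals.
sls-2.1: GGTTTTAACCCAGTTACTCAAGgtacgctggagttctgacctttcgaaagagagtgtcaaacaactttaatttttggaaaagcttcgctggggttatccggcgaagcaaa
sls-2.2: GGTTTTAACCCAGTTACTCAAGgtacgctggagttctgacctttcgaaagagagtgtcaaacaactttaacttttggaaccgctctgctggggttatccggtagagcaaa
sls-2.3: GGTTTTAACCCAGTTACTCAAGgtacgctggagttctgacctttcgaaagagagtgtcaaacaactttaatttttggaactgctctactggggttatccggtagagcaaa
All 3 are 110 bases long. Counted from 1 at the gene's first base, sls-2.2 differed from sls-2.1 by 8 substitutions, T71C, A80C, A81C, T85C, C86T, C102T, G103A and A104G, none of them in the leader. The gene sls-2.3 differed from sls-2.2 by only 3, C71T, C81T and G87A. The SL1 gene sls-1.10 (chrV:17120694-17120791, minus strand) is 98 bases long and stands for 10 identical SL1 genes. Its SL1 leader, which starts at the annotated gene's second base, is in capitals.
sls-1.10: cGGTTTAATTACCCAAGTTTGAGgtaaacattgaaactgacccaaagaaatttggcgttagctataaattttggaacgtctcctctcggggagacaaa

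The 89 other snRNA genes were grouped by sequence, because the annotation does not say which snRNA each encodes. Genes within an edit distance of 25% of their length were joined, and groups of at least 3 were named by a stretch that most of their genes hold. One group of 13 holds ACTTACCTG, the letters with which U1 pairs with 5′ splice sites. Another of 24 holds ACAGAGA, the box by which U6 is known, and another of 12 holds CCTTTTAC, the loop of U5. A group of 19 holds GTAGTATC, the branch site pairing letters of U2, and a group of 5 holds GCTTTGCGC, found at the start of U4. The other 16 genes fell into no such group. Among them is mir-1831, a 22-base entry that bears a microRNA symbol but has the biotype snRNA. In these groups the gene W05B2.8 (chrIII:10989679-10989780, plus strand) is 1 of 14 identical copies, and F38E11.10 (chrIV:9444642-9444763, plus strand) is 1 of 2. The gene sup-6 (chrII:12944803-12944967, minus strand) has no identical copy, but lies 5 edits from sup-39 (chrII:6968394-6968558, minus strand); both are known from worm genetics as U1 snRNA genes that mutate to splicing suppressors. Both are shown, with ACTTACCTG in capitals.
sup-6: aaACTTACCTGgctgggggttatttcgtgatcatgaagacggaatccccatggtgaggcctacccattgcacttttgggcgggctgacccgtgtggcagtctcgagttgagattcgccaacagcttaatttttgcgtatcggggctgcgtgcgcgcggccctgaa
sup-39: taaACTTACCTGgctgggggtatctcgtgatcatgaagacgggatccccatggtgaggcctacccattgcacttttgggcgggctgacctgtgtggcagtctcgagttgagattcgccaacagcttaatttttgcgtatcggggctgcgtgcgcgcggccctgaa

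Binding was read from the authors' peak lists. A gene was called bound where the summit of a listed region lay between 200 bp downstream and 1000 bp upstream of a 5′ end of its transcripts. The lists were an IDR list of 1033 peaks, kept by the authors for their irreproducible discovery rate (IDR), a measure of agreement between replicate rankings, a pooled list of 25493 regions from all 4 libraries, and a list of 30000 regions for each library. The pooled and library lists also hold weak regions, so a listed region is not by itself a binding site. Strength is given as the authors' signal score, whose scale is not stated, and as the rank of that score in its own list, with 1 for the strongest.

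An IDR peak stood in the window of 6 of 129 members, or 4.65%, beside a background of 2.09% over all genes. The 6 were 3 SL2 genes, sls-2.4, sls-2.1 and sls-2.2, and 3 snRNA genes, W05B2.8, F38E11.10 and sup-6. No SL1 gene (0 of 12) and no SmY gene (0 of 10) had one. Every one of these members had an IDR peak that overlapped a listed region in all 4 libraries, so that 6 of 129 members also met that rule, beside a background of 1.72%. By class, the share was 16.7% of SL2 genes (3 of 18) and 3.37% of the 89 other snRNA genes (3 of 89). For short RNA genes of other kinds the share was 8.96% for snoRNA genes (31 of 346) and 10.3% for tRNA genes (65 of 634). Shares over classes this small carry no test here.

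**Figure D1:**
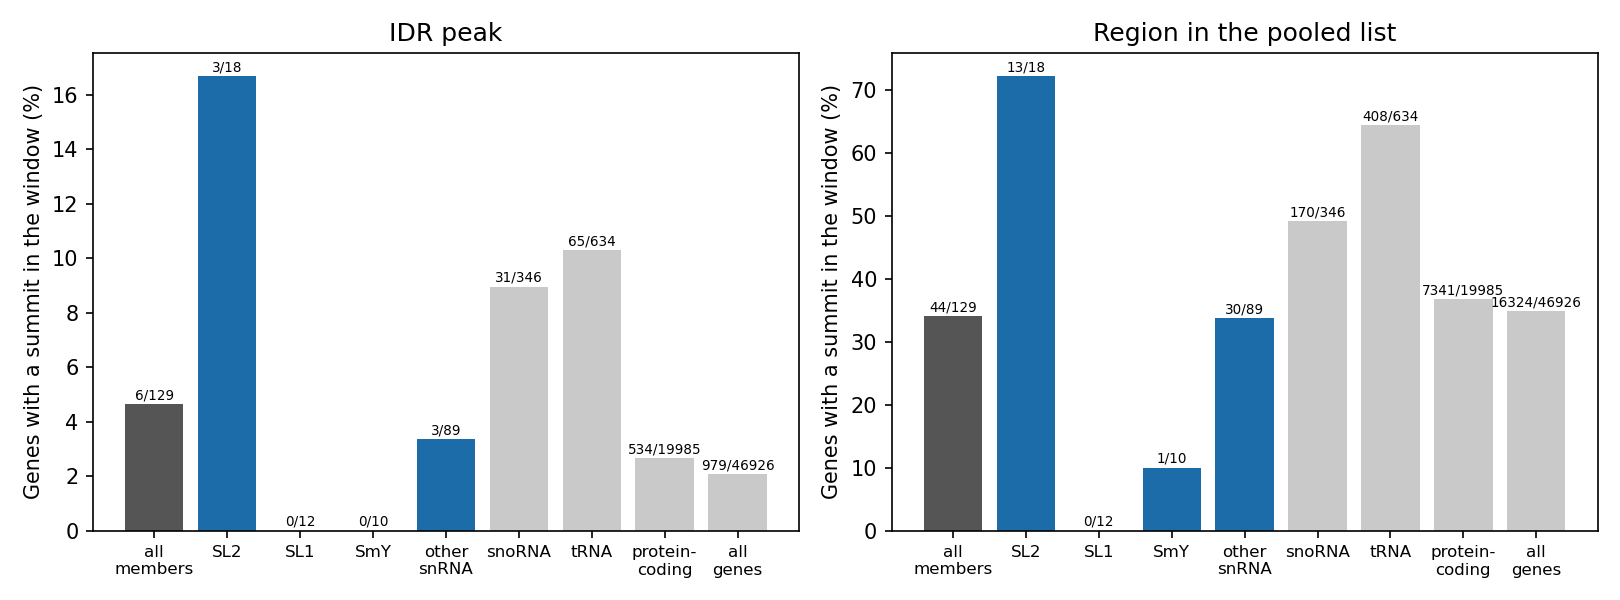
Percent of genes with a summit in the window, for an IDR peak (left) and for any region of the pooled list (right), with counts over the bars; dark grey is all members, blue their 4 classes, light grey other gene types. SL2 genes reach 16.7% and 72.2%, SL1 genes are at 0 of 12 in both, and all genes are at 2.09% and 34.8%.

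The strongest peaks lay at the SL2 genes. At sls-2.4 (chrI:4172206-4172315, plus strand) the IDR peak had a signal of 195.0 and ranked 35 of 1033, with its summit 95 bp downstream of the 5′ end, inside the gene. Its region had a signal of 64.3, 64.1, 34.9 and 57.7 in replicates 1 to 4, ranks 39, 44, 29 and 31 of 30000. All 4 libraries placed it near the top of their lists, with ranks that differ little. Divided by the median signal of each library's list, this was 11.8 ± 2.95 (SD, n = 4).

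At sls-2.1 the IDR list holds a pair of overlapping peaks. The stronger, with a signal of 159.4 and rank 54, peaked 30 bp before the 5′ end, and the weaker, with a signal of 53.7 and rank 647, lay 172 bp downstream, beyond the gene's last base. The strongest library regions had signals of 56.6, 50.7, 24.8 and 33.7 in replicates 1 to 4 and ranks of 47, 67, 47 and 74. Their summits were at 100 bp downstream in replicate 1, 39 bp upstream in replicate 2, 62 bp upstream in replicate 3 and 108 bp downstream in replicate 4. The strongest summits thus lay inside the gene in replicates 1 and 4 and upstream of it in replicates 2 and 3, and replicates 2 and 3 each listed a second region further downstream, at 160 bp with rank 406 and at 145 bp with rank 1451. Relative to the library median the signal was 8.99 ± 3.69 (SD, n = 4).

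At sls-2.2 the single IDR peak had a signal of 144.0 and rank 65, with its summit 129 bp downstream of the 5′ end, just past the gene's 3′ end. The strongest library regions had signals of 40.4, 63.9, 29.9 and 35.9 in replicates 1 to 4, with ranks of 78, 45, 37 and 69. Their summits lay 79, 167 and 114 bp downstream of the 5′ end in replicates 1, 3 and 4 and 26 bp upstream of it in replicate 2. The signal relative to the library median was 9.08 ± 2.78 (SD, n = 4). Within libraries, sls-2.4 exceeded sls-2.1 by 2.78 ± 0.85 and sls-2.2 by 2.69 ± 2.53 on this scale (SD, n = 4), in 4 of 4 libraries each. In replicate 2, however, sls-2.4 and sls-2.2 were nearly level, with signals of 64.1 and 63.9. The genes sls-2.2 and sls-2.1 differed by 0.095 ± 2.84, with sls-2.2 higher in 3 of 4 libraries.

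**Figure D2:**
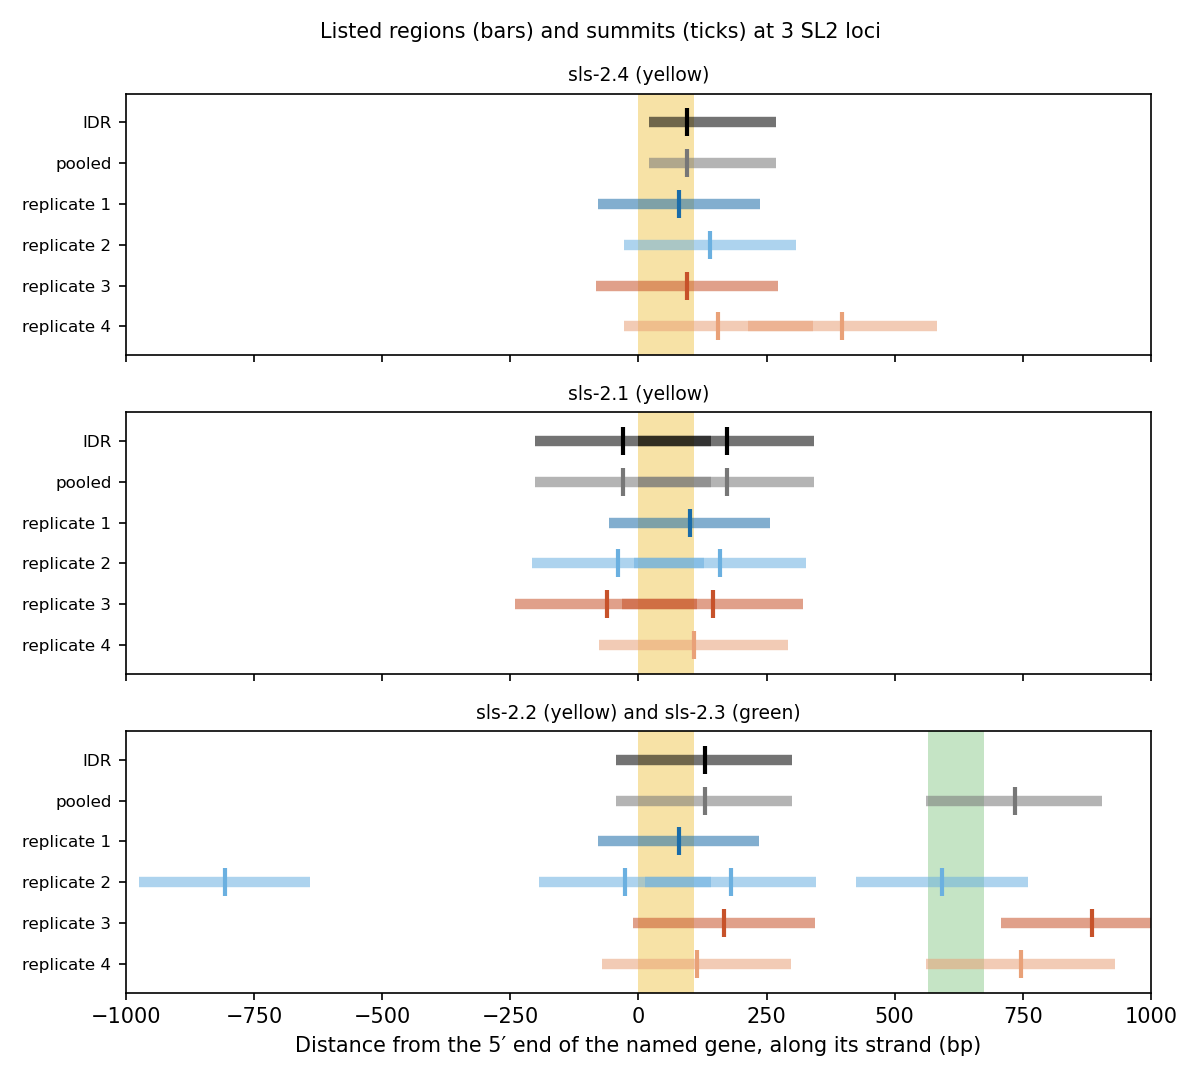
Listed regions (bars) and their summits (ticks) in the IDR, pooled and 4 replicate lists, by distance in bp from the 5′ end of sls-2.4, sls-2.1 and sls-2.2 along the gene's strand; the genes are yellow and sls-2.3 is green. Strong regions overlap each yellow gene in every list, with IDR summits at 95 bp, at -30 and 172 bp, and at 129 bp, while only weaker regions lie near sls-2.3.

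The gene sls-2.3, which shares the leader and all but 3 bases of sls-2.2, had no IDR peak. The 2 genes face each other with 456 bases between their 3′ ends. In the window of sls-2.3 the pooled list had a region of signal 14.8 and rank 11538, 59 bp upstream of the 5′ end. No region was listed there in replicate 1, and those of replicates 2, 3 and 4 had signals of 3.9, 3.4 and 9.6 and ranks of 23594, 17469 and 4160. All 3 ranks were far below those at sls-2.2. Of the 31-base words of the gene bodies, 38.8% in sls-2.3 and 50% in sls-2.2 occur once in the genome, and of the words of the whole windows 94.3% and 80.4% do. Among SL2 genes the IDR peaks were thus at 3 of the 4 that begin with the leader of sls-2.1 and at 0 of the 14 with another leader, a grouping made after these values were seen.

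That split rests on the edge of the window. At sls-2.6 (chrI:9055149-9055262, minus strand), whose leader differs, an IDR peak of signal 98.8 and rank 145 had its summit 216 bp downstream of the 5′ end, just outside the limit of 200 bp and 103 bases past the gene's 3′ end. That summit lies within the protein-coding gene hgo-1 and in no gene's window. The libraries listed it with signals of 26.5, 37.2, 15.1 and 20.8 and ranks of 236, 163, 159 and 293, and only the summit of replicate 3, at 176 bp, fell in the window. Counting any overlap of a region with the window, 7 members had an IDR peak, sls-2.6 being the one gained.

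The other SL2 genes had weaker regions. Of the 18, 13 (72.2%) had a pooled region in the window, against 34.8% of all genes, 49.1% of snoRNA genes and 64.4% of tRNA genes. Every SL2 gene had a region in at least 1 library, while 10861 of all 46926 genes had none. The strongest without an IDR peak was sls-2.8 (chrIII:12250465-12250575, plus strand), with a pooled signal of 41.5, rank 1168, and a summit 21 bp downstream. Its library ranks were 1374, 3144, 104 and 3990 in replicates 1 to 4. It was far stronger in replicate 3 than in the others, and the summit also lay in the windows of the protein-coding genes tim-1 and Y75B8A.23. The genes sls-2.5, sls-2.16 and sls-2.18 shared a single pooled region of signal 35.7 and rank 1642, so they count as 3 genes but 1 region. Its summit lay 5 bp upstream of sls-2.16 and 833 and 905 bp upstream of sls-2.5 and sls-2.18. Its library ranks were 2084, 23897, 9151 and 1067, high in replicate 4 and low in replicate 2. A further pair of SL2 genes shared 1 pooled region, of signal 11.9 and rank 18939.

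At each of the 3 snRNA genes with an IDR peak, the signal was below the strongest at sls-2.4, sls-2.1 and sls-2.2. W05B2.8 had a peak of signal 64.4 and rank 430 whose summit stood 21 bp before the 5′ end, and that summit lay in no other gene's window. It lies inside the transcribed span of the dynein gene dhc-4, whose 5′ end is further off. The library signals were 19.9, 13.3, 12 and 15, with ranks of 460, 2003, 314 and 870, lowest in replicate 2. Summits lay 40 and 19 bp upstream in replicates 1 and 2 and 11 and 14 bp downstream in replicates 3 and 4. Relative to the library median the signal was 3.3 ± 1.1 (SD, n = 4).

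F38E11.10 had an IDR peak of signal 49.3, rank 800, with its summit 22 bp downstream of the 5′ end. Replicates 1, 2 and 3 listed regions of signal 19.8, 13.9 and 11.2 and ranks 464, 1837 and 431. In replicate 4 a region of signal 13.6 and rank 1225 overlapped the peak, but its summit lay 218 bp downstream, outside the window. Its identical copy F38E11.11 (chrIV:9464517-9464638, minus strand) had no IDR peak, a pooled region of signal 14.0 and rank 13115 that lay 14 bp upstream, and library regions in replicates 3 and 4 alone, with ranks of 4053 and 29797. The 2 genes have the same 122 bases, and no 31-base word of either occurs once in the genome, against 91.7% and 91.6% of the words in their windows.

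The gene sup-6 had the weakest of these peaks, with a signal of 44.8 and rank 993 of 1033. Its summit lay 11 bp downstream of the 5′ end, within the protein-coding gene F58G1.7, whose own 5′ end is 3302 bp away. The library signals were 13.8, 8.3, 11 and 9.1 and the ranks 1089, 5411, 469 and 4910, so that replicates 1 and 3 placed it high and replicates 2 and 4 low. Relative to the library median the signal was 2.37 ± 0.948 (SD, n = 4). At sup-39, which is nearly the same gene, no IDR peak was listed, and only replicate 4 had a summit in the window, of rank 3634, 106 bp upstream. A pooled region of signal 13.8 and rank 13629 overlapped sup-39 but had its summit 207 bp downstream of the 5′ end, just outside the window, and so had a region of replicate 3 with rank 1557, at 224 bp. That pooled region was counted all the same for mir-1831, an entry that lies within sup-39, because the summit was 200 bp downstream of its 5′ end. The summit also lay in the window of the protein-coding gene eif-2Bgamma.

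**Figure D3:**
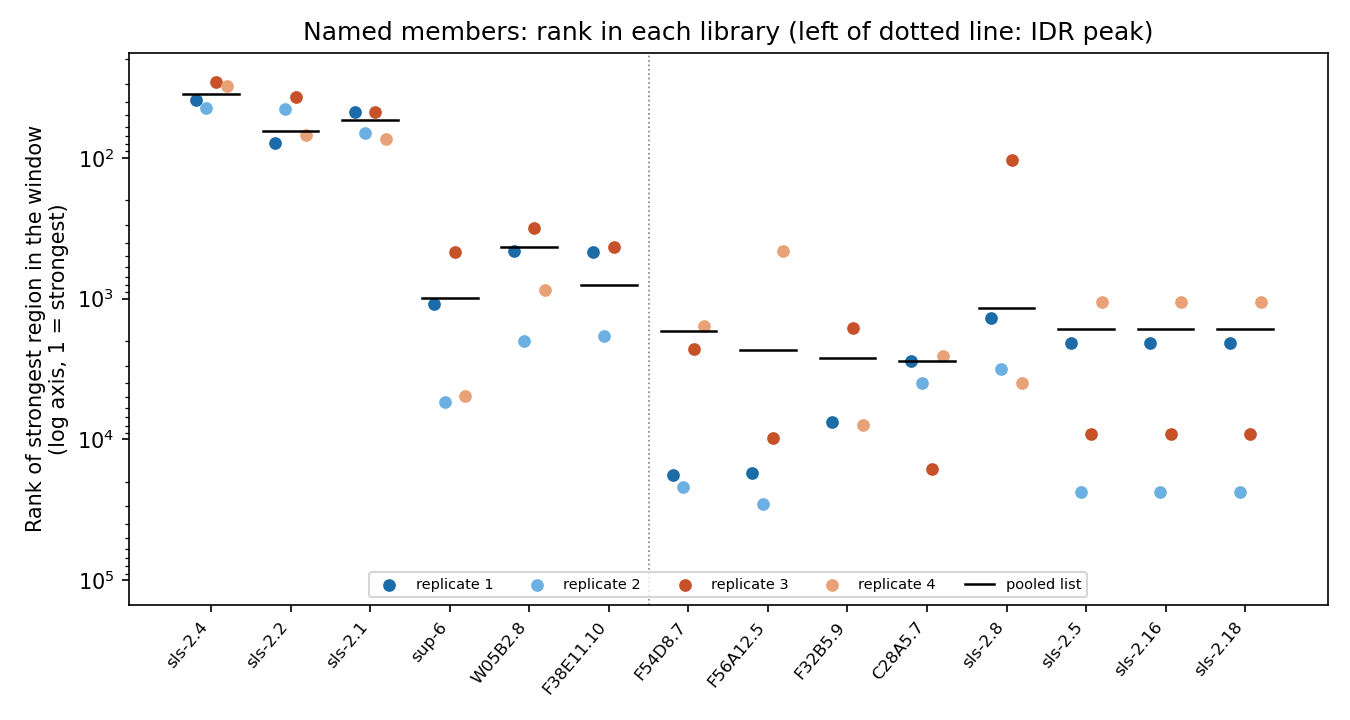
Rank of the strongest region in the window of each named member (log axis, strongest at the top) in replicates 1 to 4 (points) and in the pooled list (black lines); a missing point means no region listed. Members left of the dotted line had an IDR peak: the 3 SL2 genes stay between ranks 29 and 78 in all 4 libraries, while sls-2.8 ranges between 104 and 3990.

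The 100 bases upstream of the 5′ end are shown for members with an IDR peak, except sls-2.4, and for like genes without one. Most such genes have their promoter elements there. The most frequent 8-base word there among members, on the transcribed strand, was CGGAACCC, which is in capitals. Identical genes, W05B2.8 with K09B11.12 and F38E11.10 with F38E11.11, have different upstream stretches, 51 and 46 edits apart.
sls-2.1: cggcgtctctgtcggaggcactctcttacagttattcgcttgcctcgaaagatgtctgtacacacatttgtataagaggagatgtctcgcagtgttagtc
sls-2.2: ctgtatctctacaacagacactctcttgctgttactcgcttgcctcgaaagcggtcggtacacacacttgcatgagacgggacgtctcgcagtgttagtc
sls-2.3: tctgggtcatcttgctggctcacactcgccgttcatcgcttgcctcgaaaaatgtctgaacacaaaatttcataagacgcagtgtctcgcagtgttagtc
sup-6: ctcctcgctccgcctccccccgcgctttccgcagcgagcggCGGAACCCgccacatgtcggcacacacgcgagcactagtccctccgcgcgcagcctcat
W05B2.8: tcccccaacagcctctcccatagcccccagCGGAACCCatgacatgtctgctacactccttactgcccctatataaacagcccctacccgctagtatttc
K09B11.12: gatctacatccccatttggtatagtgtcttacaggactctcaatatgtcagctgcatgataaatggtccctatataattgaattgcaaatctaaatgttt
F38E11.10: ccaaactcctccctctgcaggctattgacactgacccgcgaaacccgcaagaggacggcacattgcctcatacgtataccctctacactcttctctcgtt
F38E11.11: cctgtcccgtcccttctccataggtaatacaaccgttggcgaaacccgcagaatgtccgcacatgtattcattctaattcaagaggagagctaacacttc
CGGAACCC stood upstream of 31 of 129 members, or 24%, and of 36 of 46791 other genes with a full stretch, or 0.0769%. Of those 36 other genes, 20 were snoRNA genes, 5.78% of all 346. The word was chosen for its frequency at members, so these shares are a description. With the other strand counted too, the shares were 24% and 0.1%. Where present it started at a median of 61 bases before the gene. It was held by 8 of 13 genes of the ACTTACCTG group, 6 of 12 of the CCTTTTAC group, 5 of 10 SmY genes, 5 of 18 SL2 genes, 5 of 24 of the ACAGAGA group and 2 of 5 of the GCTTTGCGC group, and by no SL1 gene. The most frequent word that does not overlap it by letters, TGTCGGTA, stood upstream of 23 members (17.8%) and 0.0556% of other genes. It was held by 13 of 19 genes of the GTAGTATC group, which lacked the first word. Of the 6 members with an IDR peak, 2 held CGGAACCC, W05B2.8 and sup-6, and 1, sls-2.4, held TGTCGGTA, so neither word was common to these 6. Among the identical copies of W05B2.8, Y17G9A.90 held CGGAACCC at the same position but had no IDR peak. The copy C28A5.7 lacked the word and had a region in all 4 libraries.

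E-boxes were searched within 50 bp of the summits, as the 6 letters CANNTG, which read alike on both strands, and as CAGGTG on both strands. Of the 7 IDR peaks at members, 1 had a CANNTG, the stronger peak of sls-2.1, with the letters CATTTG. None had CAGGTG. Over the whole IDR list 31.6% of summits had a CANNTG and 0.968% a CAGGTG, and over the pooled list 30.1% and 2.13%. In the 250 bases upstream of the 5′ end, CAGGTG stood at 8 of 129 members (6.2%) and at 5.93% of all other genes. A match or its lack describes the letters only.

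Protein-coding promoters were shared by some of the members with an IDR peak. The IDR summit at sls-2.4 lay in the window of egg-5, 712 bp upstream of its 5′ end; egg-5 encodes a protein of the egg-to-embryo transition. The summits at sls-2.1 lay in the window of H41C03.3, 942 and 740 bp upstream, and the summit at F38E11.10 lay 624 bp upstream of F38E11.9. The summits at sls-2.2, W05B2.8 and sup-6 lay in no protein-coding window. The 5′ end of an annotated non-coding gene was nearer to the summit than the member's own at sls-2.4, where that of R12E2.18 lay 5 bp away, and at sls-2.2, where that of C17C3.23 lay 29 bp away. At sls-2.1, W05B2.8, F38E11.10 and sup-6 the member's own 5′ end was the nearest of any gene. Of the 44 members with a pooled region, 14 shared the summit of the strongest with a protein-coding window and 30 did not.

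Weaker regions at members were about as common as at other genes. A pooled region lay in the window of 44 of 129 members (34.1%), beside a background of 34.8%, and these were 43 distinct regions. By class, 13 of 18 SL2 genes, 30 of 89 other snRNA genes, 1 of 10 SmY genes and 0 of 12 SL1 genes had one. In the groups by sequence, 8 of 12 CCTTTTAC genes, 7 of 24 ACAGAGA genes, 4 of 13 ACTTACCTG genes, 4 of 19 GTAGTATC genes and 1 of 5 GCTTTGCGC genes had one. Any region of a library's own list lay in the window of 55 members in replicate 1 (42.6%, background 37.1%), 37 in replicate 2 (28.7%, background 39%), 47 in replicate 3 (36.4%, background 37%) and 51 in replicate 4 (39.5%, background 38.4%). The mean was 36.8 ± 5.99% for members and 37.9 ± 1.01% for all other genes (SD, n = 4). Of the 129 members, 15 had a region in all 4 libraries and 35 in none. Over all 46926 genes, 3579 had a region in all 4 libraries and 10861 in none.

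Among the 2000 strongest regions of each library, members were represented by 9 genes in replicate 1 (6.98%, background 3.9%), 4 in replicate 2 (3.1%, background 4.09%), 11 in replicate 3 (8.53%, background 3.28%) and 11 in replicate 4 (8.53%, background 3.63%). The mean share was 6.78 ± 2.56% of members and 3.72 ± 0.358% of all other genes (SD, n = 4). The difference of 3.07 percentage points was positive in 3 of 4 libraries and did not pass a two-sided exact sign-flip permutation test over the libraries (p = 0.25; adjusted over 3 comparisons, 0.25). The smallest p that 4 libraries allow is 0.13. The members' share lay below that of snoRNA genes, 13.2 ± 1.79%, and of tRNA genes, 14.2 ± 1.74%, in 4 of 4 libraries (exact permutation p = 0.13 each, adjusted 0.19). Without replicate 2 the members' mean was 8.01%, 4.42 points above other genes. By preparation, it was 5.04% in replicates 1 and 2 and 8.53% in replicates 3 and 4, 1.05 and 5.09 points above other genes.

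**Figure D4:**
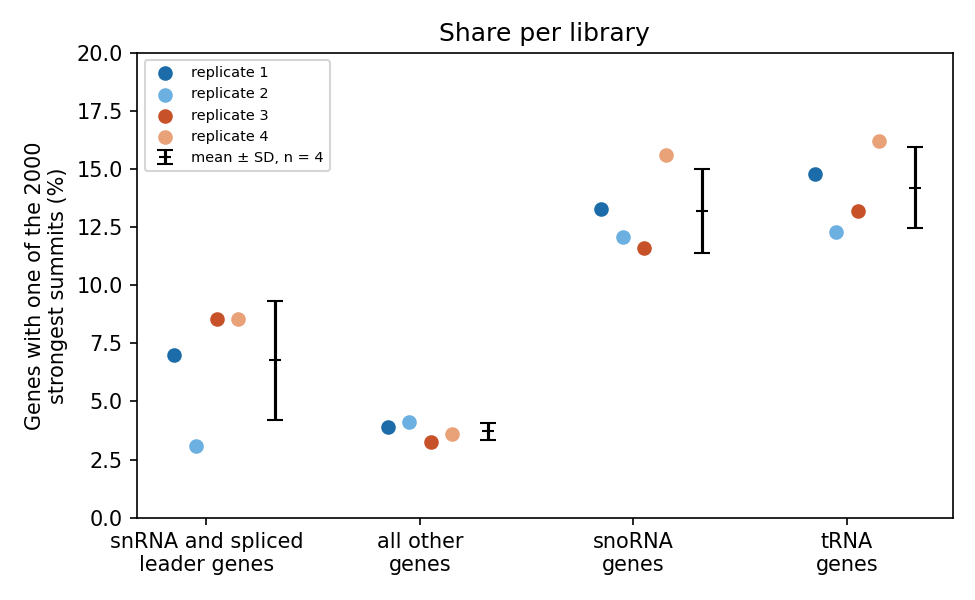
Percent of genes with one of the 2000 strongest summits of a library in the window, for replicates 1 to 4 (points) with the mean and SD (black) in each gene type. Members vary between 3.1% in replicate 2 and 8.53% in replicates 3 and 4, other genes lie close to 3.72%, and snoRNA and tRNA genes lie above both in every library.

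The strong regions at members were carried by few genes. In all, 19 members had one of the 2000 strongest regions in at least 1 library, of which 11 had it in 1 library alone. The 3 that had it in all 4 were sls-2.1, sls-2.2 and sls-2.4. W05B2.8 and F38E11.10 had it in 3 libraries each, and sup-6, sls-2.8 and Y17G9A.90 in 2. No share over all genes was computed for these counts by number of libraries, so they only describe the members. At F56A12.5, an snRNA gene of no group, the pooled signal was 30.3, 944 bp upstream of the 5′ end. Its ranks were 17277, 28693, 9852 and 456, so that replicate 4 alone placed it high. F54D8.7, of the ACAGAGA group, had a pooled signal of 35.1, 24 bp downstream of its 5′ end in a window shared with cox-6A, and ranks of 17844, 21996, 2291 and 1568. F32B5.9, of the CCTTTTAC group, had a pooled signal of 28.2 and ranks of 7508, 1632 and 7902 in replicates 1, 3 and 4, with no region in replicate 2, and C28A5.7, a further identical copy of W05B2.8, one of 27.4. C28A5.7 ranked 2801, 4004, 16334 and 2551 in replicates 1 to 4.

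Identical copies differed in what was listed at them. Of the 14 copies of the 102-base gene of W05B2.8, 1 had an IDR peak, 4 a pooled region and 11 a region in some library. No 31-base word of these genes occurs once in the genome, and how the authors treated reads that map to several places is not given in the sources. In the 7 identical 187-base genes of the GTAGTATC group, 2 had a pooled region and none an IDR peak. Over all genes, 34.8% had a pooled region and 2.09% an IDR peak, and 10861 of 46926 had no region in any library. The counts at the copies were not tested and only describe them. Among all members, 44 have an identical copy and 94 distinct sequences occur.

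The SL1 genes lie in 1 array, chrV:17118154-17132107, interleaved with genes of the 5S ribosomal RNA (rrn-4), 12 of which start within it. No list held any region that overlaps the array, and none of the 12 SL1 windows held a summit. The nearest regions of any list lay 1173 bp to the left, in replicate 1, and 1632 bp to the right, in replicate 4. All 16 annotated rrn-4 genes were also without an IDR or pooled region. The array is repetitive: between 0.0% and 22.5% of the 31-base words of 11 SL1 windows occur once in the genome, and 62.5% of the words of the remaining one, against 91.3% of words over the whole genome. The lack of regions and the lack of unique words cannot be told apart here.

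The same measure over all members set 20 windows with under 50% unique words beside 109 with more. Of the 20, 11 were SL1 genes, 4 of the GTAGTATC group, 3 of the ACAGAGA group and 2 of the ACTTACCTG group. Among them 1 had a pooled region, and 1 a region in any library. Of the 109 others, 43 (39.4%) had a pooled region and 6 an IDR peak. The 50% limit was chosen after the data were seen, and the part of uniqueness in the counts was not tested.

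**Figure D5:**
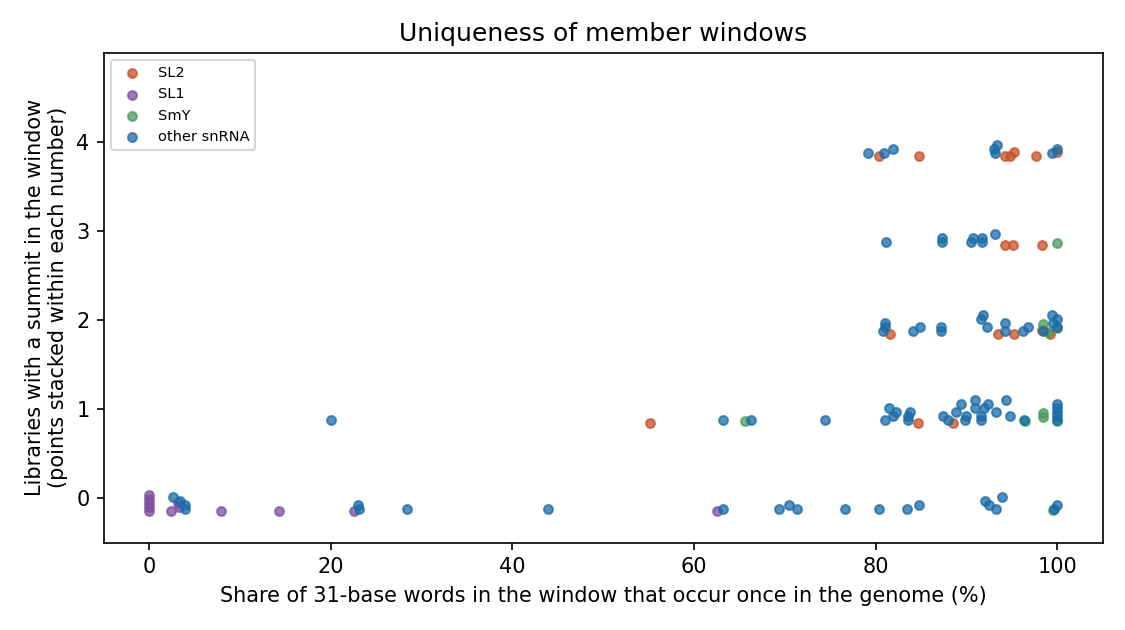
Number of libraries with a summit in the window (points stacked upward within each number) by the percent of the window's 31-base words that occur once in the genome, for the 4 classes of members. All but 1 of the 20 windows under 50% stand at 0 libraries, and the 15 members with a region in 4 libraries lie to the right.

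Of the summits listed at members, about as many lay within 200 bp of the 5′ end as further off. In the pooled list the strongest summit lay within 200 bp of the 5′ end at 24 of 44 members (54.5%), at a median of 113 bp upstream. The same share was 36% over 7341 protein-coding genes, at a median of 300 bp upstream. SL2 genes had 9 of 13 within 200 bp and the 89 other snRNA genes 15 of 30. In the single libraries the members' share was 49.1%, 48.6%, 48.9% and 58.8% in replicates 1 to 4, against 37.7%, 36.3%, 35.9% and 34.5% of protein-coding genes. The share was higher at members in 4 of 4 libraries, but the median distance was not always shorter: in replicate 2 it was 303 bp upstream at members and 306 bp upstream at protein-coding genes. Among the 89 other snRNA genes the share in replicates 1 and 2 was near that of protein-coding genes, at 40.5% and 37.5%. Their medians were 411 and 332 bp upstream, against 298 and 306 bp at protein-coding genes. In replicates 3 and 4 their share was 48.4% and 55.9%, with medians of 252 and 110 bp upstream, against 328 and 333 bp. Part of the members lie within a protein-coding gene, 63 of 129, of which 24 had a pooled region and 2 an IDR peak. Over all genes, wherever they lie, the shares were 34.8% with a pooled region and 2.09% with an IDR peak, so these counts only describe where members lie.

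Genes for proteins that make, process or use these RNAs were counted from lists of known factors, of which 64 of 69 names matched the annotation. An IDR peak lay at 3 of 64, or 4.69%, beside a background of 2.67% over protein-coding genes, and a pooled region at 34 of 64, or 53.1%, beside 36.7%. The 3 were prp-19, a core spliceosome component, with a signal of 47.8, and ints-2 and ints-4, subunits of the Integrator complex that processes snRNA 3′ ends, with 44.9 and 57.0. Their summits lay 660, 78 and 1 bp upstream. In replicates 1 to 4 the ranks were 17676, 4864, 454 and 1488 at prp-19 and 691, 3446, 1967 and 6265 at ints-2. At ints-4 they were 292, 595, 28337 and 3601, so the libraries differed widely at prp-19 and ints-4. Of the SNAPc genes, whose complex starts snRNA transcription, 0 of 8 had an IDR peak and 2 a pooled region, the stronger at snpc-3.4 with 29.1. Of the Sm core genes (snr), 6 of 7 had a pooled region and none an IDR peak. The strongest was at snr-2, with 37.8. The region at snr-4, of signal 13.9, is the same region that was counted for the member C52E4.8, of the GCTTTGCGC group. Its summit lay 340 bp upstream of snr-4 and 55 bp upstream of C52E4.8. The LSm genes had a pooled region at 7 of 8, with 41.5 at lsm-3, and the Integrator genes at 8 of 11. Among the genes for snRNA maturation 4 of 5 had one, led by smn-1 with 42.8 and tgs-1, the cap trimethylase, with 31.9. Replicate 3 listed no region in the window of either smn-1 or tgs-1. Of 21 further spliceosomal genes, 5 had a pooled region. Of the 4 trans-splicing genes, sna-3 had one of signal 40.4 and sut-1 one of 11.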

How the data were processed

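Peak lists from ChIP-seq of 4 replicates were taken as the authors deposited them, as narrowPeak files of ce11. The lists of the single libraries, of the pool and of IDR-passing peaks share 1 control, per the file records. Not given in the sources used here are the peak caller, aligner and IDR threshold. The signal score is the authors' own value, on a scale not stated, and was used only within a list; the deposited −log10 q-value was not used. Read depth is unknown, so no counting interval was given, and each library's list stops at 30000 regions.

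Computed here with Python 3.11.15, numpy 2.4.6, pandas 2.3.3 and edlib 1.3.9: summits assigned to gene windows (tested on simulated data), shares per library with their SD, and an exact sign-flip permutation test over 4 libraries, with Benjamini-Hochberg adjustment by statsmodels 0.14.6. Plots used matplotlib 3.10.9. All 129 members were matched to RefSeq symbols, because Ensembl repeats names between copies. Uniqueness is the share of 31-base words found once in the genome on either strand. No value column of the whole-series lists went unmapped (0 columns).

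Named were every member with an IDR summit, the 4 strongest others by pooled signal of the snRNA, SL1 and SL2 classes, protein-coding genes sharing those summits, IDR-bound SNAPc, Sm and trans-splicing genes and at most 4 of each other list. Members named beyond the rule were sls-2.3, sls-2.6, sup-39, mir-1831, F38E11.11, K09B11.12, Y17G9A.90 and C52E4.8. These members, snr-4, eif-2Bgamma and the strongest pooled regions of the SNAPc, Sm and trans-splicing lists were chosen after their values were seen. Members and lists were chosen with earlier results of these data known. Replicates are separate samples of 1 strain by the labels, so p-values measure only the spread between them. Peaks and genes are not replicates. The gene sequences of W05B2.8 and F38E11.10 are not reported here.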

Additional observations from a re-analysis of the deposited data

How the results depend on the processing

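With a window of 500 bp upstream to 100 bp downstream, 26 members had a pooled region, against 44 in the wider window, and the mean share with any listed region was 21.7%, against 36.8%. In the stronger 50% of the pooled list by signal, 24 members had a region. No share over all genes was set beside these counts, or beside the IDR counts that follow, at the same setting. A smaller window or list can lower the count of any genes, so the changes are not a result about members. The members with an IDR peak numbered 5 in the narrower window, which lost sls-2.2, 7 with any overlap, 6 with 5′ ends within 1000 bp counted once, and 4 in the stronger 50% of the IDR list, which lost sup-6 and F38E11.10. Asking that each library cover at least 50% of the IDR peak left 5, without F38E11.10. Leaving out 1 replicate moved the share in the 2000 strongest regions between 6.2% and 8.01% and the share with any region between 34.9% and 39.5%. It could not change the 6 members with an IDR peak found in all libraries, since all 6 already met that rule in all 4 and the IDR list was kept. The share in the strongest regions exceeded that of other genes under each alternative run. It was 4.07% in the narrower window, where the excess was 1.65 percentage points in place of 3.07, 4.07% with the 1000 strongest and 12.2% with the 5000 strongest. Without the SL1 array, an alternative added after seeing the data, 5.13% of members had an IDR peak. No paired analysis was possible between conditions because the 4 replicates form 1 group; the sign-flip test already works on differences within each library. Read depth is unknown, and weak regions limit what the pooled and library lists show.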
